A study of Mus musculus with 6 samples.

Results

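The genes described here are the expressed members of the mouse Zfp series of zinc finger genes. They are all genes of the deposited table whose symbol is Zfp followed by digits alone, leaving out Zfp36, an mRNA decay factor with another type of finger, and reaching at least 1 FPKM (fragments per kilobase of gene and mega-fragment sequenced) in at least 3 of 6 libraries. The rule found 155 members among 332 Zfp symbols, in a table of 18019 genes of which 9728 passed the same level threshold. The members were thus chosen by their FPKM level over all libraries, with no use of the group labels, and their levels are given as a description.

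RNA was sequenced from RAW264.7 cells, a mouse macrophage line, and every library came from cells induced with lipopolysaccharide (LPS), a bacterial product that drives macrophages to the inflammatory M1 state. A control group received no further treatment (n = 3), and the other group was given TPPU, which blocks the enzyme soluble epoxide hydrolase (n = 3). The labels give no dose, no time and no untreated cells without LPS, and name 1 batch. Nothing states that replicates were separate cultures, so p-values measure the spread between these libraries, which may be technical. By its title, the series asks how TPPU acts on M1 polarization of macrophages in joint disease.

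C2H2 zinc fingers are short loops held by a zinc ion between a pair of cysteines and a pair of histidines, and strings of them read DNA. The largest branch of the family in mammals carries a KRAB domain, which recruits the corepressor TRIM28 and, through it, the histone methyltransferase SETDB1 to silence retroelements and imprinted genes. Other branches activate promoters, join corepressor complexes, or act on RNA, ribosomes and ubiquitin. The Zfp symbol therefore names a type of protein part, not a shared pathway.

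The label was checked on the proteins translated from the GENCODE M21 transcripts. A finger was counted as cysteine, 2 or 4 residues, cysteine, 12 residues, histidine, 3 to 5 residues and histidine. Of 154 members found in that annotation, 151 held at least 1 such pattern, with a median of 9 and at most 36. Zfp330, Zfp703 and Zfp839 held none, so for these 3 the pattern goes against the label. A pattern for the core of the KRAB A box was present in 50 members and absent from 104. That pattern misses divergent boxes, so the class without it still holds some KRAB proteins. Zfp267 was the 1 member without an entry and has no class.

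The coding sequence of the first finger pattern is shown for 4 members to make the motif visible and to show how far the stretches differ in base composition. Sequences run 5′ to 3′ on the strand of the gene, from GENCODE M21 (mm10), with the codons of the pair of cysteines and the pair of histidines in capitals.
Zfp131 finger: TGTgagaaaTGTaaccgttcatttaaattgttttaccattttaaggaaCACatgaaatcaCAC
Zfp809 finger: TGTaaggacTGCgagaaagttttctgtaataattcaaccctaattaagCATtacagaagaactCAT
Zfp84 finger: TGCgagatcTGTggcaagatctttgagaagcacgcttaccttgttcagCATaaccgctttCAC
Zfp580 finger: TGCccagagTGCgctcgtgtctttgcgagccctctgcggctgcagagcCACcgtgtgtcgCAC

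The stretch of Zfp131 lies in a coding exon on the minus strand at chr13:119775972-119776034, and those of Zfp809, Zfp84 and Zfp580 on the plus strand at chr9:22238677-22238742, chr7:29776635-29776697 and chr7:5053096-5053158. Their GC content is 30.2%, 33.3%, 47.6% and 66.7% in the order shown. That of the whole transcripts, the measure used further below, is 39.7%, 45.8%, 46.2% and 66.1%. For 2 of these genes the core of the KRAB A box is shown as well, with the codon of its tryptophan in capitals.
Zfp809 KRAB core: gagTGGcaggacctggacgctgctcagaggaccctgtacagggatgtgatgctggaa
Zfp84 KRAB core: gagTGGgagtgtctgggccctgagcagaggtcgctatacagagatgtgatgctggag

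These lie in other coding exons of the same genes, at chr9:22235065-22235121 and chr7:29775383-29775439.

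Members were expressed at low levels. Their mean over the 6 libraries ranged from 0.948 to 44.6 FPKM with a median of 3.07, against a median of 8.11 over all genes tested, and 21.3% of the genes tested lay below the members' median. A mean under 2 FPKM was found for 51 members, 2 to 5 for 59, 5 to 10 for 27, and 10 or more for 18. The 5 highest members held 20.6% of the summed level. In 128 members all 6 libraries reached 1 FPKM, and 7 members reached it in exactly 3 libraries. One of these, Zfp747, passed through its control values alone, so its difference between the groups was partly set by the rule.

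**Figure D1:**
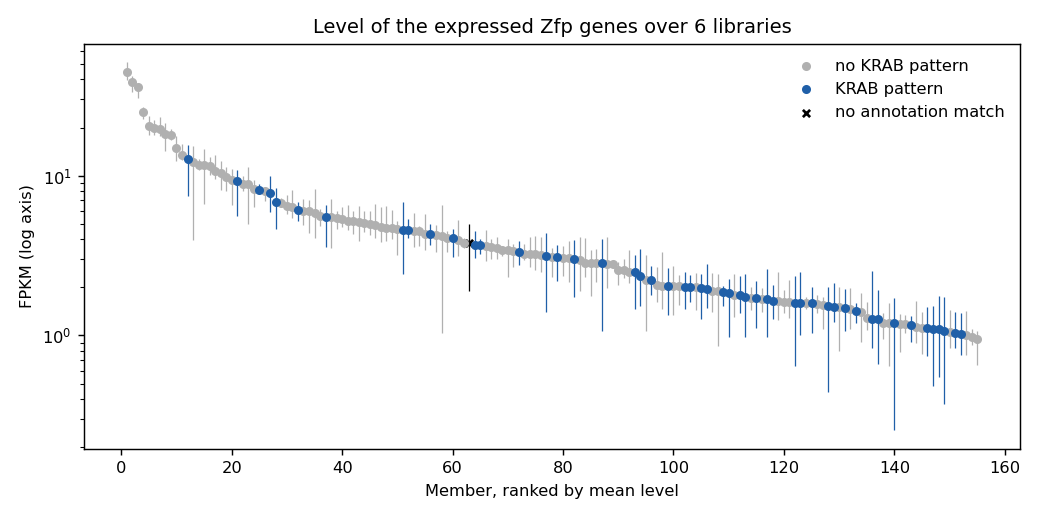
Level of each of the 155 members in FPKM (log axis), ranked by the mean over 6 libraries. Points are means, vertical lines run from the lowest to the highest library, and colours give the KRAB class. Means run from 44.6 to 0.948 FPKM, and the highest member with the KRAB pattern has 12.6.

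The 5 highest members were Zfp598, Zfp346, Zfp106, Zfp207 and Zfp740. Zfp598, a ubiquitin ligase that marks collided ribosomes, measured 42.5, 39.4 and 45.4 FPKM in control replicates 1, 2 and 3 and 51.1, 48.3 and 40.8 in TPPU replicates 1, 2 and 3. The groups overlapped. Zfp346, which binds double-stranded RNA, measured 33.4, 38 and 40.4 in the controls and 42.2, 38.9 and 38.5 after TPPU. Zfp106, an RNA-binding protein needed by motor neurons, measured 36.6, 38.2 and 30.5 in the controls and 36.9, 35.4 and 37.8 after TPPU. Both overlapped between the groups. Zfp207, which carries the checkpoint protein BUB3 to kinetochores, measured 26.6, 26.7 and 24.5 in the controls and 22.5, 25.1 and 25.6 after TPPU, and Zfp740 measured 19.9, 20.7 and 23.5 in the controls and 22, 18 and 18.4 after TPPU. No call was made for any of these 5.

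Near the threshold, Zfp53, Zfp672 and Zfp626 were the members just inside, with a third-highest value of 1.00, 1.03 and 1.04 FPKM. Zfp420, Zfp276 and Zfp3 were just outside, at 0.984, 0.983 and 0.96. Of 177 Zfp genes below the threshold, 23 reached 1 FPKM in some library and 66 stayed under 0.17 FPKM in every library. The KRAB pattern was found in 59.7% of the 176 with an annotation entry, against 32.5% of the members.

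Depth and the libraries bear on every value. Depth, estimated from the step of low values in genes with a single transcript, was 17.7 to 22.8 M (mega) fragments per library, so that 1 FPKM in a transcript of 1 kb corresponds to 17.7 to 22.8 fragments. Control replicate 3 stood apart: on the first principal component of all genes tested (52.8% of the variance) it scored 31.4 and the others -14 to 5.02. Mitochondrial transcripts made up 0.371% of its FPKM and 0.914% of that of TPPU replicate 1, where the remaining libraries had 1.46% to 1.85%. All 9 macrophage markers looked up were expressed, from Cd68 at 899 to 1105 FPKM to Fcgr3 at 1.76 to 5.94. Among 7 markers of other cell types reported here, Epcam was at 0 in 5 libraries, and 6 did not pass the level threshold, with values of at most 2.33 FPKM, but Alb, a hepatocyte marker, measured 24.5 to 59 FPKM in the controls and 66.4 to 113 after TPPU; its part in any difference was not tested. Pafah1b1, which encodes LIS1, was checked because the TPPU labels also cite a column named for a knockdown of that gene. It measured 11.7, 14.2 and 6.52 FPKM in the controls and 10.7, 13.5 and 14.2 after TPPU, and the groups overlapped. Ephx2, which encodes the target of TPPU, measured 0.447 to 0.865 FPKM in the controls and 0.42 to 2.56 after TPPU.

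No member passed the test for a difference between TPPU and control. Log2(FPKM + 1) values were compared in limma over all 9728 genes tested, with Benjamini-Hochberg adjustment, and 0 members were higher and 0 lower at an adjusted p of 0.05 (percent of all genes called 0.0% in each direction). The smallest adjusted p of a member was 0.478. Without adjustment, 4 members were higher and 5 lower at a p under 0.05, or 5.81% of the members in all, where 4.19% of all genes tested were higher and 3.7% lower (7.89% in all). Changes on the log2(FPKM + 1) scale were positive in 78 members and negative in 77, with a median of 0.00, where 54.4% of all genes tested were positive with a median of 0.02. The most positive change was 0.49 and the most negative -0.44. No member exceeded 0.5 in size on this scale, which 2.73% of all genes tested did. The scale understates changes of low genes, and the median level of members was 3.07 FPKM against 8.11 over all genes tested. At their most extreme among the alternatives described at the end, Zfp260 reached 0.70, Zfp267 0.57, Zfp839 -0.57 and Zfp703 -0.52. The median standard error of a member was 0.15, so changes of that size were within the error with 3 libraries per group. Larger changes, up to 0.49 and down to -0.44, were not called either, so the lack of calls does not show a lack of change. In such bulk samples, a change in level per cell and a change in which cells were present cannot be told apart.

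**Figure D2:**
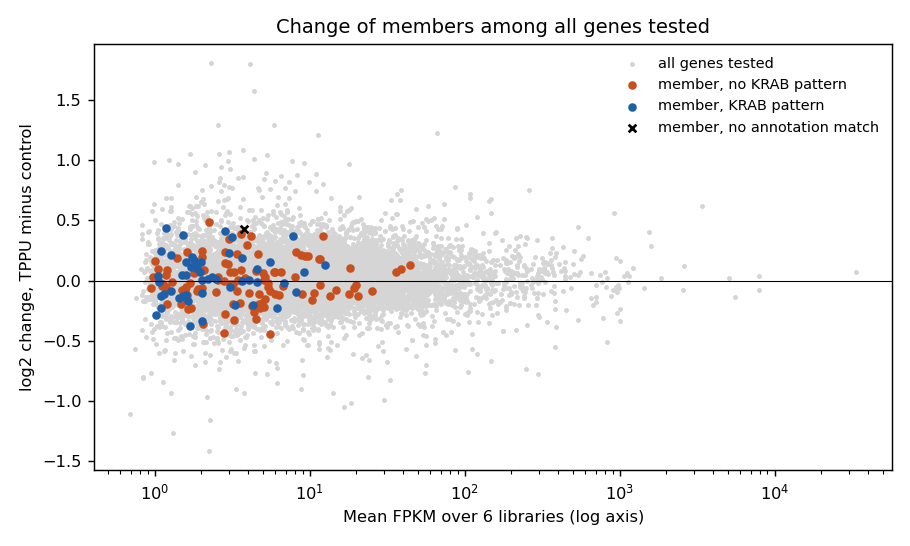
Log2 change of TPPU minus control (log2(FPKM + 1) scale) against mean FPKM (log axis) for all 9728 genes tested (grey) and the members (coloured by KRAB class). Members lie between -0.44 and 0.49, on both sides of 0.

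All TPPU values lay above all control values in 8 members (5.16%, against 7.48% of all genes tested) and below them in 18 (11.6%, against 7.88%). The 8 members above were Zfp202, Zfp24, Zfp260, Zfp267, Zfp281, Zfp369, Zfp799 and Zfp809. Among genes tested with at least 2 finger patterns but another symbol, 14.3% of 112 lay below and 3.57% above. Among 28 Zbtb genes, a family with a BTB domain, the shares were 10.7% and 3.57%, and among 8 Klf genes 12.5% and 0%. The 112 were not cleared of Zbtb and Klf genes, so these groups can share genes. Whether the members differ from these groups was not tested.

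Among the members with higher values after TPPU, Zfp369, on chromosome 13 (65278814 to 65304221, mm10), had the smallest p. Zfp369 is a relative of a factor that binds the p75 neurotrophin receptor. It measured 3.12, 2.94 and 2.92 FPKM in the controls (2.99 ± 0.107, SD) and 4.15, 4.58 and 3.98 after TPPU (4.24 ± 0.311). Every TPPU library was above every control, control replicate 3 among them, and the log2 change was 0.39 (SE 0.11, limma adjusted p = 0.478). Without control replicate 3 it was 0.38.

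Zfp809 is a KRAB protein that recognises the primer binding site of murine leukemia viruses and silences proviruses, and it lies on chromosome 9 (22225714 to 22243354). It measured 6.09, 8.06 and 5.94 FPKM in the controls (6.7 ± 1.18) and 8.11, 10 and 8.59 after TPPU (8.9 ± 0.984). The lowest TPPU library lay just above the highest control. The change was 0.37 (SE 0.14, limma adjusted p = 0.566), from 0.29 to 0.49 when single libraries were left out.

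Zfp24, a SCAN-domain protein required for myelination, measured 2.56, 2.95 and 2.15 FPKM in the controls and 3.35, 3.9 and 3.29 after TPPU, for a change of 0.35 on the log2 scale (SE 0.13, limma adjusted p = 0.577). Zfp260 measured 1.82, 2.24 and 1.07 in the controls and 2.29, 3.2 and 2.77 after TPPU. Its change of 0.49 (SE 0.19, limma adjusted p = 0.585) was the most positive among the members and was 0.31 without control replicate 3. Zfp267 measured 3.58, 3.89 and 1.9 in the controls and 3.93, 4.42 and 4.95 after TPPU. Its change of 0.43 was 0.20 without control replicate 3. Zfp706 measured 3.79, 3.38 and 3.15 in the controls and 3.54, 4.68 and 5.24 after TPPU, and its groups overlapped. Its change was 0.30 (SE 0.15), or 0.20 without TPPU replicate 3. In all 6 of these genes control replicate 3 was the lowest of the 6 libraries.

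Among the members with lower values after TPPU, Zfp703, a corepressor of the Nlz family, measured 5.8, 6.53 and 7.13 FPKM in the controls (6.49 ± 0.667) and 5.05, 3.53 and 5.03 after TPPU (4.54 ± 0.871). The groups did not overlap, and TPPU replicate 2 was the lowest. The log2 change was -0.44 (SE 0.15, limma adjusted p = 0.562), the most negative among the members, and -0.31 without TPPU replicate 2. Zfp84, a KRAB protein on chromosome 7 (29768552 to 29779821), had closely spaced replicates. It measured 2.39, 2.32 and 2.38 in the controls (2.36 ± 0.0376) and 1.7, 1.62 and 1.69 after TPPU (1.67 ± 0.0429), a change of -0.33 (SE 0.12, limma adjusted p = 0.564). That change lay between -0.34 and -0.32 when any library was left out.

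Zfp839 measured 3.33, 2.7 and 4.11 FPKM in the controls and 1.98, 2.19 and 2.53 after TPPU, for a change of -0.43 on the log2 scale (SE 0.15, limma adjusted p = 0.564). Zfp956 measured 3.81, 3.25 and 4.15 in the controls and 2.76, 2.69 and 2.87 after TPPU (-0.32, SE 0.12). Control replicate 3 was the highest library for both. Zfp580, a protein with 3 finger patterns and a GC-rich transcript (66.1% GC), measured 5.12, 5.86 and 4.37 in the controls and 3.93, 4.15 and 3.56 after TPPU (-0.32, SE 0.13). Zfp382, a KRAB protein, measured 6.79, 6.55 and 6.7 in the controls and 5.59, 5.23 and 5.88 after TPPU (-0.23, SE 0.10). The groups of all 4 were separate, with limma adjusted p from 0.564 to 0.627. Zfp580 overlaps Ccdc106 on the same strand, so its reads may be shared with that gene.

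**Figure D3:**
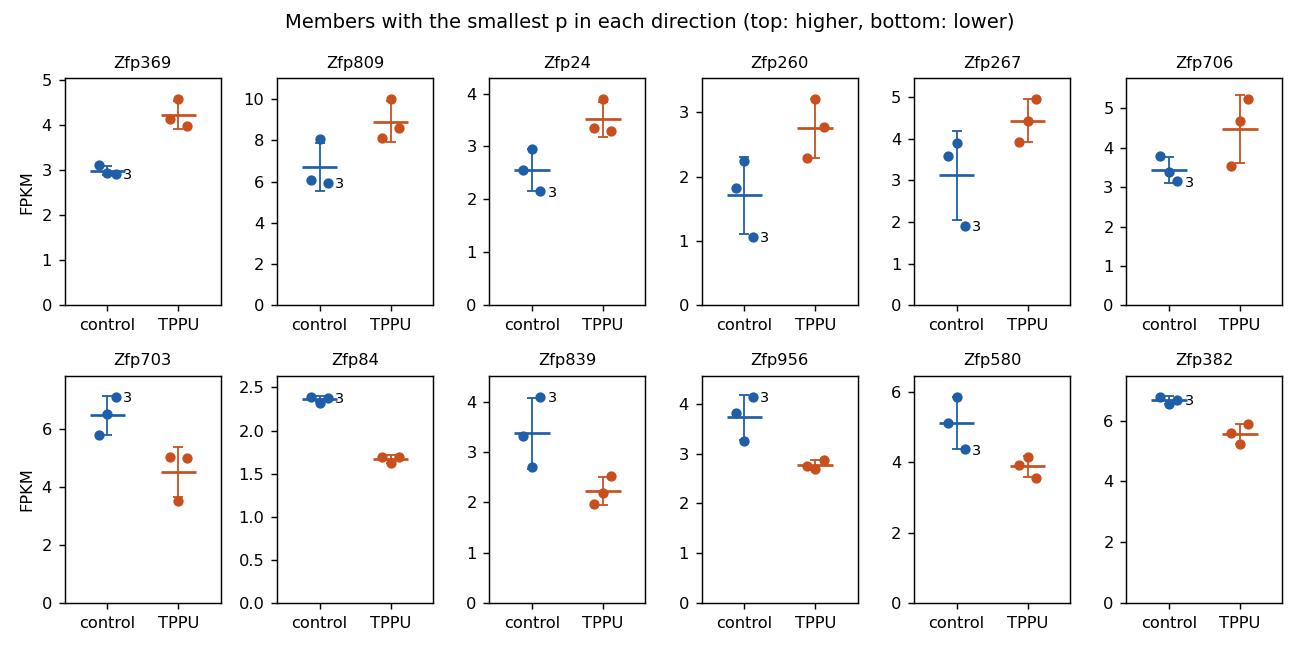
FPKM in each library of the 6 members with the smallest p among higher values (top row) and among lower values (bottom row). Points are libraries, horizontal bars means, error bars SD over 3 libraries, and the digit 3 marks control replicate 3. The groups are separate in all of them but Zfp706, and control replicate 3 is the lowest library in every panel of the top row.

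On the list of RNA and ribosome roles, every member overlapped between the groups. So did most genes: all TPPU values lay above all control values in 7.48% of all genes tested and below in 7.88%. Of 8 genes on that list 7 were tested, 3 with positive and 4 with negative changes, between -0.21 and 0.13, and 0 were called. Zfp622, a maturation factor of the large ribosomal subunit, measured 5.69, 6.21 and 5.34 FPKM in the controls and 4.87, 5.31 and 5.95 after TPPU. Zfp830, a splicing-associated protein, measured 4.83, 4.77 and 4.18 in the controls and 3.35, 4.91 and 3.4 after TPPU. Both overlapped between the groups. Zfp326, of a complex that links elongation to splicing, ranged from 2.31 to 3.54 over the 6 libraries. Zfp638, which brings silencing to unintegrated retroviral DNA, ranged from 0.792 to 1.36. Zfp593, another factor of the large ribosomal subunit, ranged from 0.0526 to 0.496 and is not a member.

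The list of ubiquitin, SUMO and mitosis roles held 3 members, and 0 were called. Zfp91, an E3 ligase that activates the kinase NIK in noncanonical NF-κB signalling, measured 8.6, 11.4 and 4.95 FPKM in the controls and 8.45, 9.63 and 9.98 after TPPU. Control replicate 3 was the lowest library and replicate 2 the highest, so both extremes lay in the control group. Zfp91 overlaps Cntf on the same strand. Zfp451, a SUMO ligase, measured 5.34, 6.53 and 4.72 in the controls and 5.08, 4.56 and 4.84 after TPPU, and its groups overlapped.

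Of 15 promoter activators and partners of corepressors, all were members, 5 had positive and 10 negative changes (median -0.03), and 0 were called. Zfp143, which binds many promoters and the contact points of chromatin loops, measured 22.2, 20.4 and 17.8 FPKM in the controls and 20.8, 19.1 and 19 after TPPU, with overlap. Zfp335, a coactivator needed by T cells and neural progenitors, measured 18.8, 17.8 and 23.4 in the controls and 18.8, 18.8 and 19.2 after TPPU. Zfp609, a partner of cohesin loading and Integrator proteins, measured 13.4, 13.2 and 15.8 in the controls and 12.8, 12.5 and 13 after TPPU. For Zfp609 the highest TPPU library lay just under the lowest control.

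Zfp687 and Zfp592 are partners in a chromatin complex with ZMYND8. Zfp687 measured 3.15, 3.01 and 3.47 FPKM in the controls and 2.33, 2.16 and 2.95 after TPPU, without overlap (log2 change -0.28, SE 0.13, limma adjusted p = 0.63). Zfp592 measured 10.7, 9.92 and 12.4 in the controls and 9.75, 11.5 and 8.17 after TPPU, with overlap. Zfp281, a partner of the NuRD complex in stem cells, measured 3.47, 3.49 and 2.31 in the controls and 4.03, 3.62 and 3.51 after TPPU. Its groups were separate by a narrow margin. Zfp148, a binder of GC-rich promoters, ranged from 4.36 to 7.02, and Zfp384, a shuttling factor that binds AT-rich DNA, from 8.07 to 10. Both overlapped between the groups.

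Zfp410, an activator of Chd4, measured 3.62, 3.6 and 3.12 FPKM in the controls and 3.63, 3.42 and 3.31 after TPPU, a log2 change of 0.00. Zfp217, which works with LSD1 and CoREST, measured 2.62, 2.91 and 4.14 in the controls and 4.15, 2.78 and 2.5 after TPPU, so that control replicate 3 and TPPU replicate 1 were the high libraries. Zfp652 ranged from 2.95 to 3.74, Zfp644, a partner of the methyltransferase G9a, from 0.77 to 1.4, Zfp746, a repressor of the Pgc-1α gene, from 1.39 to 1.97, and Zfp827, which brings NuRD to telomeres, from 1.46 to 1.74. None of these 4 had separate groups.

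Zfp131, a BTB protein, had the lowest value of control replicate 3 relative to the other controls on the log2 scale. It measured 14.3, 15.2 and 3.98 FPKM in the controls and 10.2, 15 and 14.1 after TPPU, so control replicate 3 was 3.71-fold below the mean of the other controls. Its control mean of 11.2 ± 6.25 and TPPU mean of 13.1 ± 2.56 (SD, n = 3) overlapped. Zfp35, not on a list and named after its values were seen, measured 4.91, 5 and 1.03 in the controls and 2.26, 5.31 and 6.57 after TPPU. It was 4.79-fold below the other controls in control replicate 3.

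For the silencing of retroelements and imprinted genes, Zfp809 and Zfp568 were members. Zfp568, which represses a placental transcript of Igf2, measured 3.87, 3.54 and 3.58 FPKM in the controls and 3.24, 4.01 and 3.75 after TPPU, and its groups overlapped. Zfp57, the guardian of imprinted methylation, was listed at 0.0149 in control replicate 1 and at 0 in the other 5 libraries, under the level of 1 fragment in 1 kb. Zfp932 ranged from 0.112 to 0.829, and Zfp708 was not analysed here. Zfp445, which also protects imprints and was named after its values were seen, measured 11.8, 14.6 and 6.61 in the controls and 8.95, 13.5 and 14.4 after TPPU. The KRAB pattern was not found in Zfp445, so below it counts in the class without the pattern.

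Of 11 genes of pluripotency and cell lineage, 4 were members. Zfp318, which controls IgD splicing in B cells, measured 1.73, 2.4 and 1.34 FPKM in the controls and 1.58, 2.38 and 2.73 after TPPU. Zfp516, an activator of brown fat genes, measured 4.47, 5 and 6.61 in the controls and 4.97, 4.09 and 4.54 after TPPU. Both overlapped. Zfp296 ranged from 0.9 to 1.64, and the remaining member, Zfp703, is given above. Zfp503, Zfp467 and Zfp462 were detected below the threshold, with highest values of 1.48, 0.564 and 0.132. Zfp423, Zfp521 and Zfp536, of fat, blood and nerve precursors, did not exceed 0.0322 FPKM in any library, and Zfp42, a marker of pluripotent cells, was not analysed here.

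Members with the KRAB pattern were lower in level and poorer in GC than the others. Their median level was 1.97 FPKM against 3.6 without the pattern, their median GC content 44.0% against 51.8%, and their median number of finger patterns 11 against 7. Summed over the 50 genes, their level was 156, 162 and 119.8 FPKM in control replicates 1, 2 and 3 and 135, 161 and 153 in TPPU replicates 1, 2 and 3. Control replicate 3 and TPPU replicate 1 were the low libraries, and the group means of 146 ± 22.8 and 149.8 ± 13.1 (SD, n = 3) differed by less than the spread. The 104 genes without the pattern summed to 645, 653 and 643 in the controls and 645, 654 and 644 after TPPU. The KRAB class held 29 positive and 21 negative changes with a median of 0.03. Without control replicate 3 it held 19 positive ones, with a median of -0.07.

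**Figure D4:**
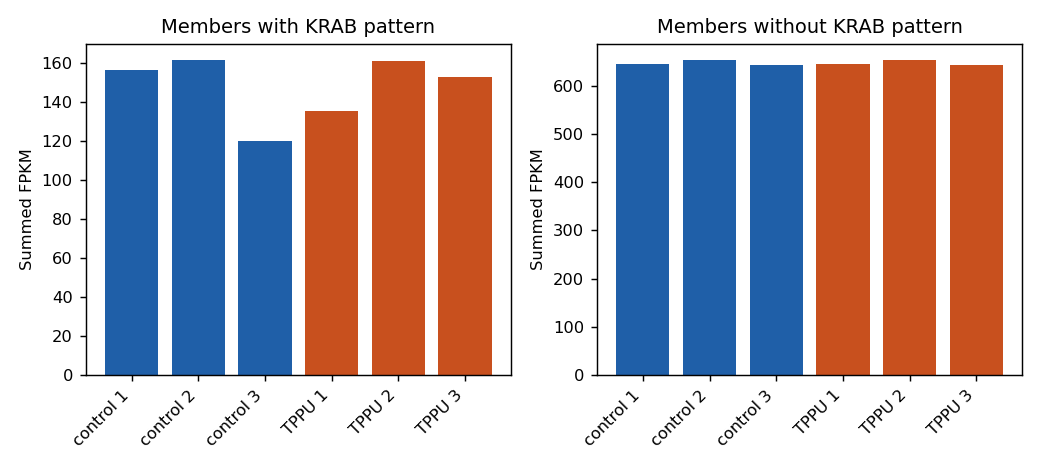
Summed FPKM per library of the 50 members with the KRAB pattern (left) and the 104 without it (right), control in blue and TPPU in orange. The left panel is lowest in control replicate 3 (119.8) and TPPU replicate 1 (135), while the right panel stays between 643 and 654.

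The deviations of members in control replicate 3 followed the GC content of their transcripts. Across the 154 members with a GC value (genes, which share the same 6 libraries), Spearman's rho between a member's deviation from its own mean and its GC content was 0.73 in control replicate 3, 0.19 in TPPU replicate 1, and -0.28 to -0.43 in the other 4 libraries. Over all genes tested it was 0.61 and 0.25 in the first 2 and -0.18 to -0.46 in the others. The deviations of a gene cancel out over the 6 libraries, so a positive trend in some libraries brings a negative trend in others. The negative values are thus at least partly built in by the measure. Control replicate 3 was the lowest of the 6 libraries in 36.1% of members (27.7% of all genes tested) and in 52.0% of the KRAB class. Its median deviation was -0.22 in the KRAB class and 0.02 in the class without the pattern.

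**Figure D5:**
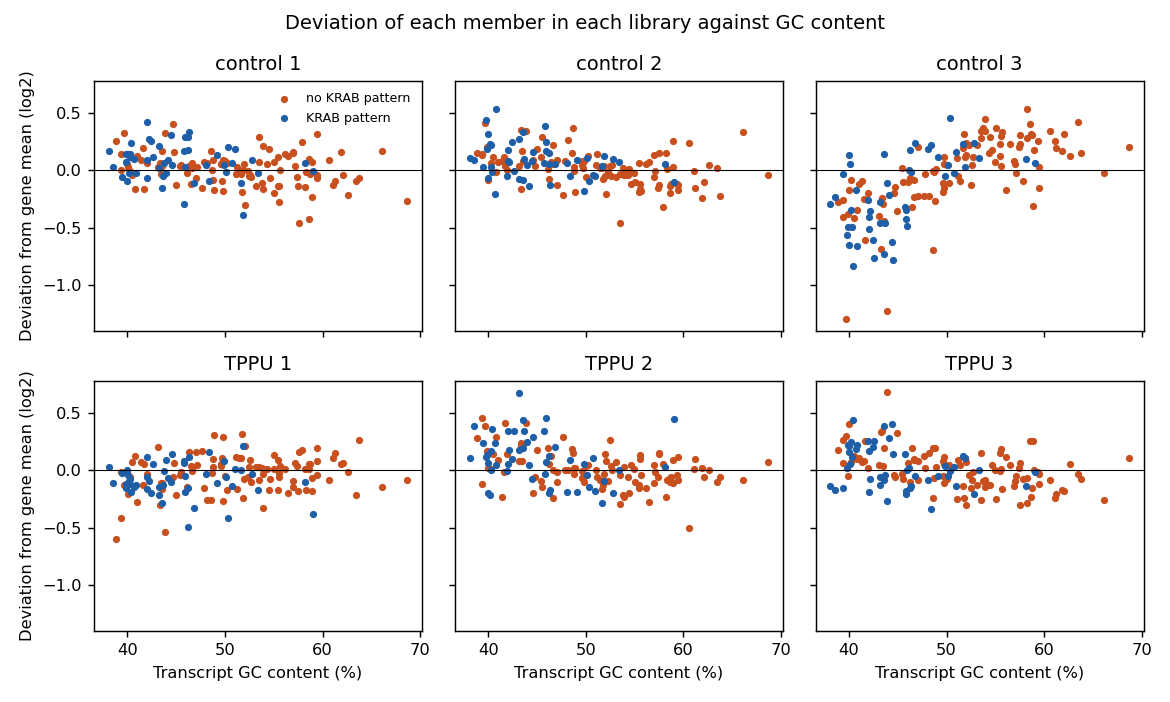
Deviation of each member from its mean over 6 libraries (log2(FPKM + 1) scale) against the GC content of its transcript in percent, 1 panel per library, coloured by KRAB class. Control replicate 3 shows low values at low GC and high values at high GC (rho 0.73), and the other panels are flatter.

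The sign of a member's change divided by GC content in the same way. When the members were divided into 3 classes of like size, 39 of the 51 poorest in GC (up to 45.4%) had positive changes, with a median of 0.11, against 19 of the 52 richest (from 52.5%), with a median of -0.08. Within the same GC limits, changes were positive in 72.0% of all genes tested in the GC-poor class (76.5% of members) and in 43.0% in the GC-rich class (36.5% of members). Of the 18 members with all TPPU values below control, 12 were in the GC-rich class (23.1%, against 9.50% of all genes tested there). The middle class held 6 (11.8%, against 9.22%) and the GC-poor class 0 (against 3.20%). All TPPU values lay above control in 4 GC-poor members (7.84%, against 8.16%). They did so in 3 members of the middle class (5.88%, against 9.94%) and 0 GC-rich ones (against 4.57%). Whether members differ from other genes of like GC content was not tested. Without control replicate 3, 23 of 51 and 27 of 52 were positive, with medians of -0.03 and 0.01. With a trend on GC removed from each library the medians were 0.05 and -0.05.

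Many members lie side by side in the genome. Groups of at least 3 members with starts no more than 500 kb apart numbered 11 and held 53 members. Changes had both signs in 8 of them and were all positive in 3. The largest, on chromosome 7 (29768552 to 30169750), held 9 members, 7 of them with the KRAB pattern, and 15 Zfp genes of the table. Changes there ran from -0.33 in Zfp84 to 0.49 in Zfp260, with 5 positive. In a second group on chromosome 7 (127233061 to 127885996) 3 of 8 changes were positive (median -0.10), and the median GC content was 56.1%. On chromosome 17 (32765496 to 33005457) the 5 KRAB genes Zfp871, Zfp811, Zfp799, Zfp870 and Zfp952 all had positive changes, from 0.01 to 0.38. Their sum was 29.8, 31.4 and 15.6 FPKM in the controls and 24.6, 28.2 and 29.5 after TPPU. Control replicate 3 was the low library, and the sums of both other controls lay above those of all TPPU libraries.

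The partners through which KRAB proteins silence chromatin had a median level of 11.8 FPKM. Of 28 names listed 26 were tested, 14 with positive and 12 with negative changes (median 0.01), and 0 were called. Trim28, the corepressor, measured 41.8, 37.3 and 48.8 FPKM in the controls and 45.1, 42.7 and 40 after TPPU (log2 change 0.01, SE 0.12, limma adjusted p = 0.991). Setdb1 measured 16.4, 17.2 and 17.5 in the controls and 15.4, 16.1 and 15.1 after TPPU, without overlap (-0.13, SE 0.09, limma adjusted p = 0.725). Hdac1, a histone deacetylase, measured 22.7, 21.6 and 26.1 in the controls and 19.7, 20.9 and 18 after TPPU (-0.25), and Cbx1, which encodes HP1β, 13, 12.6 and 7.99 in the controls and 14.2, 14.7 and 14.2 after TPPU (0.35). Daxx measured 52.3, 45.6 and 61.4 in the controls and 50.2, 43.6 and 41.6 after TPPU, and Dnmt3a 7.51, 8.16 and 9.99 in the controls and 7.18, 7.25 and 7.42 after TPPU. Cbx1 was lowest in control replicate 3, and Hdac1, Daxx and Dnmt3a were highest there. Of the 26 tested, 1 (Cbx1) had all TPPU values above all control values (3.85%, against 7.48% of all genes tested). All lay below in 3, Setdb1, Hdac1 and Dnmt3a (11.5%, against 7.88%).

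Shared sequence limits some values. In 10 members over 10% of the 50-base stretches of the transcript also occurred in a transcript of another gene, with 46.0% in Zfp524 and 36.9% in Zfp747, and less in Zfp414, Zfp653, Zfp7, Zfp330, Zfp865, Zfp384, Zfp28 and Zfp866. How such reads were counted is not given in the sources used here, so the levels of these genes are uncertain. Another gene overlapped 4 members on the same strand and 14 on the opposite strand.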

How the data were processed

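Poly(A) RNA libraries marked for strand with dUTP were sequenced, per the labels' protocols. The authors deposited FPKM values for 18019 symbols in 6 libraries. The submitters' processing notes name mm10. Columns were joined to samples by the library names that the descriptions give. The sources used here give no aligner, counter, annotation or filter.

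Expressed genes (1 FPKM or more in 3 libraries or more) were tested as log2(FPKM + 1) with limma (version 3.58.1, in R 4.3.3), trend on, group as the only factor, two-sided, with Benjamini-Hochberg adjustment at 0.05. Fold changes on that scale understate the change of low genes. No count model was used, since the unit is not counts. Depth was estimated from whole multiples of the value of 1 fragment, within 0.1. Gene positions, GC content, length and translated proteins came from GENCODE M21, which gave 97.9% of tested genes a GC value. The fits were checked on simulated libraries without an outlying library or a GC trend, so the check does not cover these features of the data. Other steps used Python 3.11.15, numpy 2.4.6 and pandas 2.3.3.

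The members and lists were chosen with earlier results of these data known. The rule named all members of 5 role lists, the 6 of smallest p in each direction, the 5 highest, the 3 nearest the level threshold on each side, and up to 6 partners of KRAB proteins. The final KRAB pattern (picked on sequence after other forms were tried), the GC classes, neighbour groups, limit on shared stretches, comparison families, members lowest in control replicate 3, the sequences shown, and every other named gene were chosen after values were seen. Promoter motifs were counted as well and are not reported. One marker of another cell type is not reported here.

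Whether replicate numbers pair the libraries was looked at: deviations of same-numbered libraries correlated at -0.30, 0.15 and -0.40 across genes. Those of differently numbered libraries ranged from -0.45 to 0.51, the highest for control replicate 3 with TPPU replicate 1. With 3 libraries per group and control replicate 3 far from the others, these values cannot show or exclude pairing. The main fit did not treat the libraries as pairs.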

Additional observations from a re-analysis of the deposited data

How the results depend on the processing

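No member was called under any of 18 alternatives, and the smallest adjusted p of a member was 0.0679, with sample quality weights. Over all genes that setting called 169, and 0 to 6 were called when single libraries were left out, the 6 without TPPU replicate 1. Leaving out both control replicate 3 and TPPU replicate 1, added after the data were seen, called 39 genes, with 29 members separate above control and 41 below, in groups of 2 libraries that separate more easily. The 6 members with the smallest p in each direction kept the direction of their change in all 205 values computed. These genes were picked by their p in the same libraries, and the groups of all but Zfp706 were separate. With separate groups, leaving out libraries or changing the pseudocount, filter or trend could not reverse the sign, so most of these outcomes were fixed in advance. With the replicate block (the number as a term in the fit) 0 genes and 0 members were called. Whether the numbers pair the libraries was not settled. Members separate above control numbered 4 with median-of-ratios scaling, 4 with quantile normalization, 13 with the GC trend removed, 1 at a mean of at least 5 FPKM, and 10 to 20 with single libraries left out. Members separate below numbered 5 at a mean of at least 5 FPKM and 23 to 32 with single libraries left out. The share of all genes tested is not given for any of these settings, so these counts of separate members are not results about the members. The setting of at least 5 FPKM holds fewer members (27 at 5 to 10 FPKM and 18 at 10 or more). Leaving out a single library leaves a group of 2, which separates more easily. The median change of all members was -0.037 with quantile normalization and -0.039 to 0.018 with single libraries left out. That of members without the KRAB pattern was -0.061 with quantile normalization, -0.014 with the length trend removed and -0.037 to -0.011 with single libraries left out. With single libraries left out, the median was -0.067 to 0.087 in the KRAB class, -0.026 to 0.20 in the GC-poor class and -0.14 to 0.0092 in the GC-rich class. The cause of these shifts was not tested. The value of 3 fragments in a transcript of 1 kb was 0.132 to 0.17 FPKM, which covers counting error alone.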
